A study of Mus musculus with 2 samples.

Results

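The genes described here are 10 genes of muscle protein breakdown and autophagy, followed from quiescent to activated satellite cells (SCs) and into the muscle fibre material that was captured with them. They are the atrophy ubiquitin ligases Trim63 and Fbxo32, the transcription factors Foxo1 and Foxo3, the autophagy genes Gabarapl1, Gabarapl2, Map1lc3b, Sqstm1 and Bnip3, and the small GTPase gene Rrad. They were taken by symbol from the 32285 features that both libraries share, all 10 were found there, and all 10 were among the 14443 genes detected in at least 3 of the barcodes used. Each member also had the 20 UMIs needed to be called in every comparison below. The ASC library carried 10.8 times the Rrad level of the QSC library, and the QSC library 6.27 and 7.66 times the Foxo1 and Foxo3 levels of the ASC library. Transcripts of Trim63, Fbxo32 and Bnip3 in both libraries, and of Rrad, Gabarapl2, Map1lc3b and Sqstm1 in the ASC library (78.7%, 67.2%, 61.9% and 58.0% of their UMIs), came mostly from barcodes rich in fibre RNA.

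The QSC library held quiescent SCs sorted from uninjured tibialis anterior (TA) muscle, and the ASC library held activated SCs sorted from TA muscle 1.5 days after an injection of CTX, a toxin that destroys muscle fibres. Both came from 8-week-old mice of the genotype Pax7 CreERT2/+ ;Rosa26 mTmG/+, in which the Pax7 gene, a marker of SCs, drives an inducible Cre that can switch on a fluorescent reporter. Each library was made from SCs pooled from 5 mice, so it holds no measure of the spread between animals. The treatment that induces Cre in these mice is not given in the sources used here, and the protocol names the hind-limb muscles where the tissue label names TA. There was 1 library per group, so condition and library cannot be told apart, no difference has a replicate check, and every interval covers counting error only.

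A muscle loses protein along a pair of main routes. In the ubiquitin route, ligases such as MuRF1 (encoded by Trim63) and atrogin-1 (encoded by Fbxo32) tag proteins for the proteasome. In macroautophagy, a membrane decorated with proteins of the ATG8 family, to which LC3B and the GABARAP proteins belong, encloses cargo and delivers it to the lysosome, and cargo receptors such as p62 (encoded by Sqstm1) bind ATG8 proteins. FoxO transcription factors are known to raise the expression of genes of both routes in wasting muscle.

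The promoters of 8 members were matched in RefSeq (GRCm38.p6), each as 300 bases that begin 250 before the start site, and 4 of them carried a match to at least 1 of the motifs searched. The promoters of Trim63, Bnip3 and Map1lc3b are shown because each holds a match other than, or beside, the myogenic E-box, which was the match in Sqstm1. The motif searched for FoxO was TGTTTAC, on both strands. Only the Trim63 promoter among the 8 held it, at position -194 counted from 0 at the start site, and 3.65% of the 32851 promoters in the table hold it. The myogenic E-box CAGCTG stood at -72 in Trim63 and also occurred in the Map1lc3b and Sqstm1 promoters, against 16.3% of all promoters. The E-box CACGTG stood at -108 in Bnip3 (7.15% of all promoters), and the antioxidant-type motif TGACNNNGC at 4 in Map1lc3b (12.4%). An exact match to the palindromic glucocorticoid response element was in none of the 8 windows and in 0.00913% of all. Matches with a changed base were not searched for. The Trim63 window has such a stretch directly before its FoxO match, equal to the element at every fixed base but the first. These matches describe letters and not bound sites. The sequences below run 5′ to 3′ on the strand of the gene, with the matched motifs in capitals.
Trim63 (chr4:134314870-134315169, plus strand): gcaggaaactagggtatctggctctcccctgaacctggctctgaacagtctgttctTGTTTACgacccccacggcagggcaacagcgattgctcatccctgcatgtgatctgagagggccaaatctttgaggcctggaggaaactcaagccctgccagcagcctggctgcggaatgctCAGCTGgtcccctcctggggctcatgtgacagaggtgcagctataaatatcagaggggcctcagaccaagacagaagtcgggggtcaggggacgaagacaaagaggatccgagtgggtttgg
Bnip3 (chr7:138909457-138909756, minus strand): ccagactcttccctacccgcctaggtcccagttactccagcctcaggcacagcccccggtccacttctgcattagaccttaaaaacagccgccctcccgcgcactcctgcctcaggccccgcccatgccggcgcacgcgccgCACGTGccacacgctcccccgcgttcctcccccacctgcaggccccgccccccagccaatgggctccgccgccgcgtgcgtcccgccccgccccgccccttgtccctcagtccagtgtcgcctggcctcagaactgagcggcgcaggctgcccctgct
Map1lc3b (chr8:121590188-121590487, plus strand): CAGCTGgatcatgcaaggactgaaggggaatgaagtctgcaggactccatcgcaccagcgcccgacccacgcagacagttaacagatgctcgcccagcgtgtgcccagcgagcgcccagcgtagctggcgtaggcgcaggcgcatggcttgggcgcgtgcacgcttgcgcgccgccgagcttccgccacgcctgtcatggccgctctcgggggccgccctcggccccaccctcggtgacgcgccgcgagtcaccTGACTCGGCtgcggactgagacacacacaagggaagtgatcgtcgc

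A kept barcode had at least 500 detected genes and at most 10% mitochondrial UMIs, the unique molecular identifiers that count captured transcripts. This left 516 of 766 QSC barcodes with 1162091 UMIs and 1468 of 1650 ASC barcodes with 8895815 UMIs. The median depth was 2155 UMIs (QSC) and 3502 UMIs (ASC) per barcode. The libraries shared 4 deposited and 2 kept barcode sequences. Levels are given as CPM, the UMIs of a gene per 1000000 UMIs summed over the barcodes of a group, with an exact Poisson 95% interval, and a count of 0 allows up to 3 counts, or 2.58 CPM for the QSC and 0.337 CPM for the ASC library. A gene was called higher or lower where its CPM differed by at least 2-fold and it had at least 20 UMIs over both sums.

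The labels call both libraries muscle stem cells, but a large share of the barcodes was rich in transcripts of the fibre. Barcodes that drew 5% or more of their UMIs from 10 fibre genes (Acta1, Ckm, Mylpf, Myh4, Tnnt3, Tnni2, Tnnc2, Pvalb, Atp2a1 and Eno3, none of them a member) are called fibre-high. They made up 20.2% of the QSC barcodes (104 of 516, Clopper-Pearson 95% interval 16.8 to 23.9) and 64.7% of the ASC barcodes (950 of 1468, 62.2 to 67.2). Their median fibre share was 18.5% and 14.6%, their median mitochondrial share 0.719% and 0.177%, and Pax7 stood in them at 9.32 CPM (2 UMIs) and 1.96 CPM (6 UMIs). Myod1 stood in them at 14.0 CPM (3 UMIs) and 169 CPM (516 UMIs), and Myog at 0 CPM and 147 CPM (449 UMIs). The fibre-high ASC barcodes were thus not free of these myogenic transcripts. The class is a range of a score, with 1 QSC and 40 ASC barcodes between 4% and 6%. Fibre-low barcodes outside clusters named as non-muscle types are called fibre-low muscle barcodes. They numbered 369 in the QSC library, with Pax7 at 214 CPM, and 410 in the ASC library, with Myod1 at 417 CPM and Myog at 946 CPM. Many of the ASC ones lay in cluster 1, which its markers left unnamed (248 ASC barcodes, 11 of them fibre-high). Macrophage/monocyte-like barcodes, 16 in the QSC and 85 in the ASC library, served as the background for muscle transcripts that reach every droplet as free RNA. They took a median of 2.11% and 2.37% of their UMIs from the 10 fibre genes, against 1.72% and 1.85% in fibre-low muscle barcodes, so no kind of barcode was free of fibre RNA. The fibre-high barcodes of the QSC library lay mostly in cluster 8 (94 of 104), those of the ASC library in clusters 0, 3, 5 and 6 (369, 225, 187 and 98 of 950).

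Over all kept barcodes, 1 member was at least 2-fold higher in the ASC library, Rrad, and 2 were at least 2-fold lower, Foxo1 and Foxo3. The same call was made for 16.0% of the 11189 genes with enough UMIs in the higher direction and for 23.0% in the lower direction, so neither count of members stood above that of all genes. The median log2 ratio was -0.29 over the members and -0.10 over all these genes. Because the share of fibre-high barcodes differed so much between the libraries, each member is described below within each class, as is shown in the plot of levels by library and class.

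**Figure D1:**
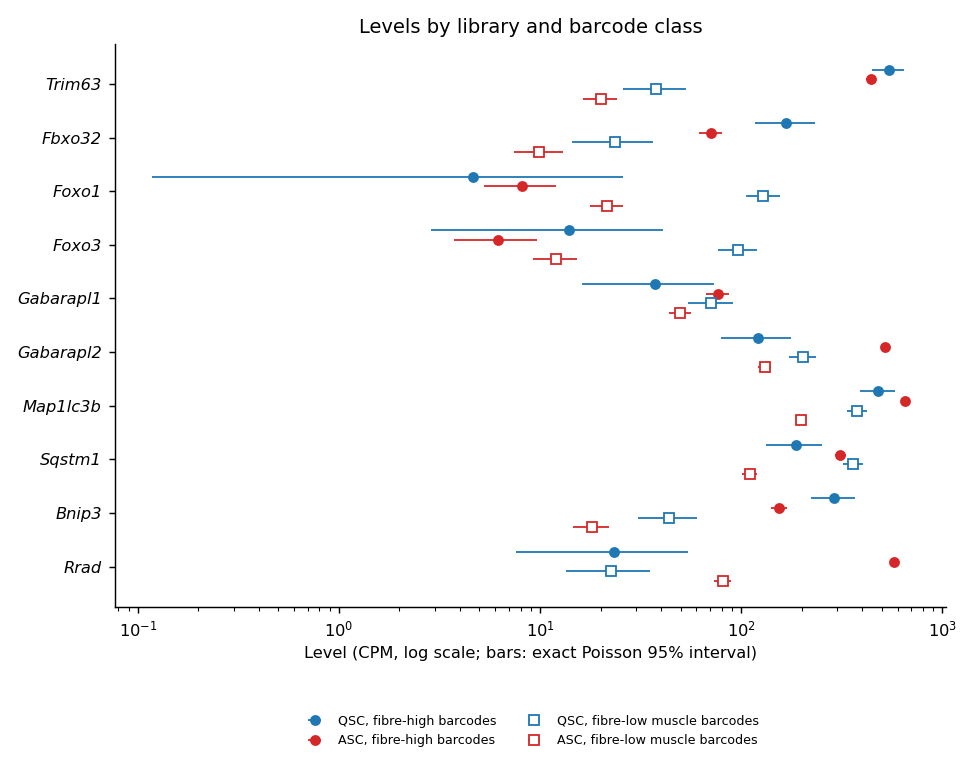
Levels of the 10 members in CPM (horizontal log axis) in fibre-high (filled circles) and fibre-low muscle (open squares) barcodes of the QSC (blue) and ASC (red) libraries, with exact Poisson 95% intervals as bars. Trim63, Fbxo32 and Bnip3 sit higher in fibre-high barcodes of both libraries, Foxo1 and Foxo3 are highest in fibre-low QSC barcodes, and Rrad and Gabarapl2 stand apart in the fibre-high ASC barcodes, at 576 and 522 CPM.

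Trim63 (chromosome 4, 134315120 to 134329629, GRCm38, plus strand) encodes MuRF1, the ligase that tags proteins of the thick filament. Over all barcodes it stood at 129 CPM among QSC barcodes (150 UMIs, 95% interval 109 to 151) and 165 CPM among ASC barcodes (1466 UMIs, 156 to 173), a log2 ratio of 0.35 (0.11 to 0.60). Within fibre-high barcodes the order was turned, with 541 CPM (116 UMIs, 447 to 649) against 441 CPM (1348 UMIs, 417 to 465), a log2 ratio of -0.30 (-0.57 to -0.01). Trim63 thus lay under 2-fold apart between the libraries, and the slightly higher level over the whole ASC library went along with its 64.7% of fibre-high barcodes. With each barcode weighted alike, the log2 ratio over all barcodes was 1.36 and that within fibre-high barcodes 0.01, and with a limit of 1% mitochondrial UMIs the ratio over all barcodes was -0.60. Fibre-high barcodes held 77.3% of the Trim63 UMIs of the QSC library and 92.0% of those of the ASC library. Against fibre-low muscle barcodes the gene was higher in them by 3.84 on the log2 scale for QSC (3.26 to 4.45) and by 4.46 for ASC (4.17 to 4.76).

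Fbxo32 (chromosome 15, 58175879 to 58214932, minus strand) encodes atrogin-1, the substrate-binding subunit of an SCF ligase. In fibre-high barcodes it stood at 168 CPM among QSC barcodes (36 UMIs, 118 to 232) and 70.6 CPM among ASC barcodes (216 UMIs, 61.5 to 80.7), a log2 ratio of -1.25 (-1.76 to -0.70). The fibre-low muscle barcodes gave a like ratio of -1.26 (-2.02 to -0.43), from 23.6 CPM (20 UMIs) to 9.91 CPM (52 UMIs). In fibre-high barcodes the point value of Fbxo32 was thus past 2-fold lower after injury and that of Trim63 was not. The interval of Fbxo32 reaches ratios under 2-fold, and with each barcode weighted alike its log2 ratio was -0.97, short of 2-fold. Whether this difference between the ratios exceeds the spread between animals cannot be tested with 1 library per group. An antisense gene, Gm15943, overlaps the start of Fbxo32, and the part of this overlap in the counts was not tested.

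Foxo1 (chromosome 3, 52268336 to 52353221, plus strand) and Foxo3 (chromosome 10, 42181841 to 42276755, minus strand) encode FoxO factors, which insulin and growth factor signalling keeps out of the nucleus. In fibre-low muscle barcodes Foxo1 stood at 129 CPM among QSC barcodes (109 UMIs, 106 to 155) and 21.5 CPM among ASC barcodes (113 UMIs, 17.7 to 25.9), a log2 ratio of -2.58 (-2.97 to -2.19). Foxo3 stood there at 96.9 CPM (82 UMIs, 77.1 to 120) and 12.0 CPM (63 UMIs, 9.22 to 15.4), a log2 ratio of -3.01 (-3.51 to -2.52). Fibre-low muscle barcodes held 92.4% of the Foxo1 UMIs and 93.2% of the Foxo3 UMIs of the QSC library. Fibre-high QSC barcodes had 1 Foxo1 UMI and 3 Foxo3 UMIs, and fibre-high ASC barcodes 25 and 19. Their log2 ratios there, 0.81 (-1.80 to 6.17) for Foxo1 and -1.17 (-2.94 to 1.23) for Foxo3, span 0, so no direction could be read at this depth, although the point value of Foxo3 passes 2-fold. The mitochondrial limit decided the Foxo1 value over all barcodes: with at most 1% mitochondrial UMIs, which leaves 1 Foxo1 UMI in the QSC library, it turned from -2.65 to 0.35. A limit of 1% is the one that the methods of the study name. A part of Foxo1 overlaps the antisense gene Gm20402, and no counted gene on the other strand overlaps Foxo3.

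Gabarapl2 (chromosome 8, 111940703 to 111953612, plus strand) encodes GATE-16, an ATG8 protein of the GABARAP branch. In fibre-high barcodes it stood at 121 CPM among QSC barcodes (26 UMIs, 79.2 to 178) and 522 CPM among ASC barcodes (1597 UMIs, 497 to 548), a log2 ratio of 2.11 (1.55 to 2.73). In fibre-low muscle barcodes the order was turned, with 202 CPM (171 UMIs, 173 to 235) against 131 CPM (690 UMIs, 122 to 142), a log2 ratio of -0.62 (-0.86 to -0.37). Gabarapl2 was therefore higher after injury where fibre transcripts were abundant and lower where they were not, and over all barcodes these came to a log2 ratio of 0.57 (0.37 to 0.78). Near-identical pseudogene copies of it (Gm3724, Gm5829 and Gm6051) are annotated but were not counted.

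Gabarapl1 (chromosome 6, 129533160 to 129542346, plus strand) encodes a close relative of Gabarapl2 in the same branch. In fibre-high barcodes it stood at 37.3 CPM among QSC barcodes (8 UMIs, 16.1 to 73.5) and 76.5 CPM among ASC barcodes (234 UMIs, 67.0 to 87.0), a log2 ratio of 1.04 (0.03 to 2.27) that just passed 2-fold. The fibre-low muscle barcodes had 70.9 CPM (60 UMIs) and 49.7 CPM (261 UMIs), a log2 ratio of -0.51 (-0.92 to -0.08). The antisense transcript 1700101I11Rik overlaps the start of Gabarapl1, and the part of this overlap in the counts was not tested.

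Map1lc3b (chromosome 8, 121590361 to 121598760, plus strand) encodes LC3B, the ATG8 protein most used as an autophagosome marker. It was under 2-fold apart between the libraries in each class. In fibre-high barcodes it stood at 480 CPM among QSC barcodes (103 UMIs, 392 to 582) and 651 CPM among ASC barcodes (1992 UMIs, 623 to 680), a log2 ratio of 0.44 (0.15 to 0.74), and in fibre-low muscle barcodes at 378 CPM (320 UMIs, 338 to 422) and 199 CPM (1044 UMIs, 187 to 211), a log2 ratio of -0.93 (-1.11 to -0.74). Over all barcodes the classes offset each other, at a log2 ratio of -0.12 (-0.26 to 0.02), which turned to 0.19 under TMM scaling. Map1lc3b has many near-identical stretches elsewhere in the genome, among them the pseudogenes Gm12727, Gm6054 and Gm6055, and overlaps Zcchc14 on the other strand.

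Sqstm1 (chromosome 11, 50199366 to 50210827, minus strand) encodes p62, which links ubiquitin-tagged cargo to ATG8 proteins. In fibre-low muscle barcodes it stood at 362 CPM among QSC barcodes (306 UMIs, 322 to 405) and 110 CPM among ASC barcodes (578 UMIs, 101 to 119), a log2 ratio of -1.72 (-1.92 to -1.51). Fibre-high barcodes again had the opposite order, with 186 CPM (40 UMIs, 133 to 254) and 312 CPM (954 UMIs, 292 to 332), a log2 ratio of 0.74 (0.29 to 1.24). That order rested on where fibre-high was set to begin: with a limit of 2% in place of 5%, the log2 ratio was -0.23. The end of Sqstm1 overlaps Mrnip on the other strand.

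Bnip3 (chromosome 7, 138890836 to 138909519, minus strand) encodes a mitophagy receptor of the outer mitochondrial membrane that is known to respond to low oxygen. In fibre-high barcodes it stood at 289 CPM among QSC barcodes (62 UMIs, 222 to 371) and 155 CPM among ASC barcodes (473 UMIs, 141 to 169), a log2 ratio of -0.90 (-1.29 to -0.50), and in fibre-low muscle barcodes at 43.7 CPM (37 UMIs, 30.8 to 60.3) and 18.1 CPM (95 UMIs, 14.6 to 22.1), a log2 ratio of -1.27 (-1.84 to -0.68). Like the ligases, Bnip3 was a transcript of fibre-high barcodes, by 2.72 on the log2 scale for QSC (2.11 to 3.35) and 3.09 for ASC (2.77 to 3.43). Pseudogene copies of it (Gm16439, Gm6532 and Gm9419) are annotated but were not counted, and the antisense gene Gm45507 overlaps its end.

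Rrad (chromosome 8, 104628070 to 104631327, minus strand) encodes Rad, a GTPase of the RGK family that restrains voltage-gated calcium channels. It had 27 UMIs over all kept QSC barcodes (23.2 CPM, 15.3 to 33.8) and 2237 UMIs over all kept ASC barcodes (251 CPM, 241 to 262), a log2 ratio of 3.44 (2.89 to 4.04). In fibre-high barcodes the difference was larger, from 23.3 CPM (5 UMIs, 7.57 to 54.4) to 576 CPM (1761 UMIs, 549 to 603), a log2 ratio of 4.63 (3.40 to 6.25). In fibre-low muscle barcodes it was smaller, from 22.5 CPM (19 UMIs, 13.5 to 35.1) to 81.2 CPM (426 UMIs, 73.6 to 89.2), a log2 ratio of 1.85 (1.19 to 2.60), and 78.7% of the Rrad UMIs of the ASC library were in fibre-high barcodes. In the QSC library fibre-high barcodes did not stand out, at a log2 ratio over fibre-low muscle barcodes of 0.05 (-1.72 to 1.52), whereas in the ASC library they did, at 2.83 (2.67 to 2.98). The antisense gene Gm33023 overlaps the start of Rrad, and the part of this overlap in the counts was not tested.

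**Figure D2:**
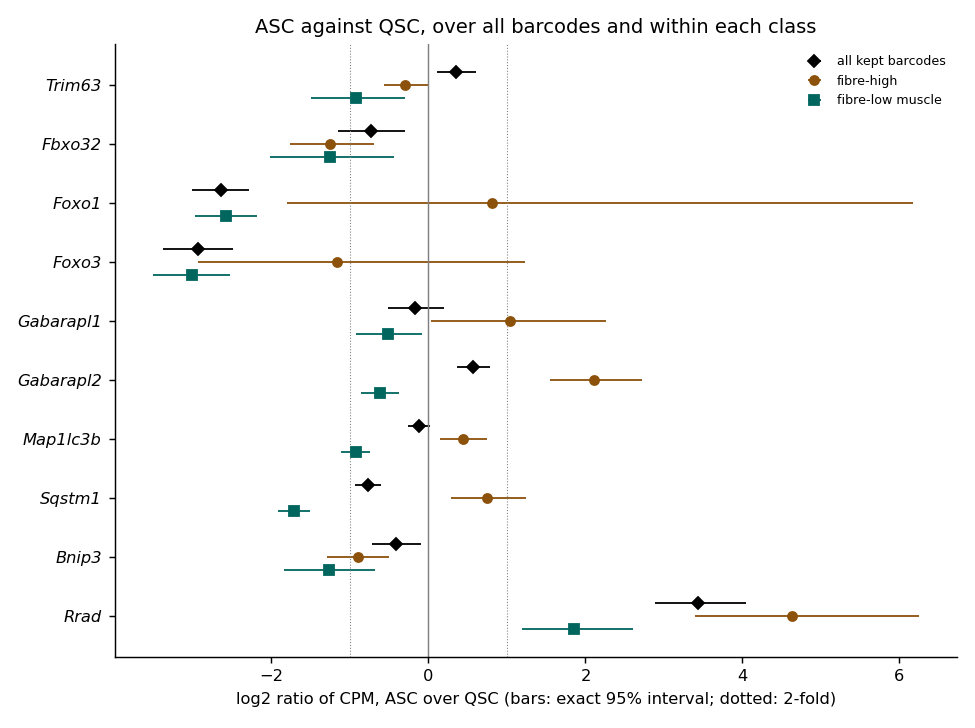
Log2 ratio of CPM, ASC over QSC, for the 10 members (horizontal axis) over all kept barcodes (black diamonds), fibre-high barcodes (brown circles) and fibre-low muscle barcodes (green squares), with exact conditional binomial 95% intervals; dotted lines mark 2-fold. Gabarapl1, Gabarapl2, Map1lc3b and Sqstm1 lie above 0 in fibre-high and below 0 in fibre-low muscle barcodes, and Rrad lies above 0 in each.

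Read together, the members split by class. In fibre-high barcodes, Rrad, Gabarapl2 and Gabarapl1 were at least 2-fold higher in the ASC library and Fbxo32 and Foxo3 at least 2-fold lower. The call of Foxo3 rests on 3 QSC UMIs with an interval that spans 0 (-2.94 to 1.23), so it gives no direction. That of Gabarapl1 rests on 8 QSC UMIs (0.03 to 2.27). Of all 6480 genes with enough UMIs, 18.8% were called higher and 10.4% lower. The median log2 ratio was 0.59 over the members and 0.10 over all genes. In fibre-low muscle barcodes, Rrad was the only member at least 2-fold higher and 5 were at least 2-fold lower (Fbxo32, Foxo1, Foxo3, Sqstm1 and Bnip3), where 18.6% and 22.5% of 9950 genes were called. The median was -1.09 over the members and -0.07 over all genes. The median gene with at least 20 UMIs in each library lay at -0.18 in the fibre-high and -0.26 in the fibre-low muscle comparison. In the smaller QSC sums 20 UMIs are a higher CPM, so the genes behind this median lean to higher QSC levels. Against that median gene, the log2 ratios in fibre-high barcodes were 2.29 for Gabarapl2 and -1.07 for Fbxo32, and those in fibre-low muscle barcodes were -1.45 for Sqstm1 and -2.75 for Foxo3. TMM scaling moved each log2 ratio up by 0.12 and 0.31, and left 3 of those 5 members at least 2-fold lower in fibre-low muscle barcodes.

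The comparison between classes of the same library showed where the transcripts were. In the ASC library, 7 members were at least 2-fold higher in fibre-high than in fibre-low muscle barcodes (Trim63, Fbxo32, Gabarapl2, Map1lc3b, Sqstm1, Bnip3 and Rrad) and Foxo1 was lower, against 15.8% of 10224 genes called higher and 44.3% called lower. The median log2 ratio was 1.85 over the members and -0.73 over all genes. The QSC library had 3 members higher (Trim63, Fbxo32 and Bnip3) and 2 lower (Foxo1 and Foxo3), against 18.8% and 47.8% of 5294 genes, with medians of -0.34 and -0.89. Gabarapl2, Sqstm1 and Map1lc3b differed in this respect: in fibre-high over fibre-low muscle barcodes their log2 ratios were 1.99 (1.86 to 2.12), 1.50 (1.35 to 1.65) and 1.71 (1.60 to 1.82) after injury and -0.74 (-1.39 to -0.14), -0.96 (-1.47 to -0.48) and 0.34 (0.01 to 0.67) before it. In the QSC library, the median of the 1118 genes with at least 20 UMIs in each class lay at 1.07. Relative to it, the value of Map1lc3b there turned to -0.73. Fibre-high QSC barcodes held 214486 UMIs and fibre-low muscle ones 845826, so 20 UMIs are a higher CPM in the former. These genes thus lean to the fibre-high class, and the turn depends on which genes set the reference.

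The members in fibre-low muscle barcodes were also set beside the fibre RNA that these barcodes carried, since free RNA from 1 source would keep its genes in 1 ratio in every kind of barcode. The UMIs of a member were counted per 10000 UMIs of the 10 fibre genes. In the ASC library Rrad had 37.9 UMIs per 10000 in fibre-high barcodes (36.1 to 39.7), 42.0 in fibre-low muscle barcodes (38.1 to 46.2) and 32.0 in macrophage/monocyte-like barcodes (23.0 to 43.2). Bnip3 had 10.2, 9.36 and 9.13 in the same order, and Fbxo32 had 4.65, 5.12 and 2.28. For these 3 genes the intervals of fibre-low muscle and macrophage/monocyte-like ASC barcodes overlap, although Bnip3 and Fbxo32 had 12 and 3 UMIs in the latter. The counts per 10000 took only the 83 macrophage/monocyte-like ASC barcodes that were fibre-low. In fibre-low muscle barcodes the CPM was 81.2 for Rrad and 18.1 for Bnip3. Beside these stood 82.5 and 25.7 CPM in all 85 macrophage/monocyte-like ASC barcodes, 2 of them fibre-high. Trim63 had 29.0 UMIs per 10000 in fibre-high barcodes, but 10.3 (8.46 to 12.5) in fibre-low muscle and 8.37 (from 11 UMIs) in macrophage/monocyte-like barcodes, so fewer Trim63 UMIs came with each fibre UMI outside fibre-high barcodes. In the QSC library, fibre-low muscle barcodes had more Rrad per fibre UMI than fibre-high barcodes, 13.2 (7.97 to 20.7) against 1.25 (0.407 to 2.93), from 19 and 5 UMIs. The ratio to fibre UMIs was thus not the same across classes for Trim63 in the ASC library and for Rrad in the QSC library, and the part of free RNA in the fibre-low values of Trim63, Fbxo32, Bnip3 and Rrad was not tested.

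Detection per barcode was compared at equal depth, after each barcode was thinned to 1200 UMIs, which kept 90 and 863 fibre-high and 366 and 405 fibre-low muscle barcodes of the QSC and ASC libraries. Before thinning these had median depths of 1830.5 and 2892 UMIs, and 2225 and 8712 UMIs. Trim63 was detected in 38.9% of fibre-high QSC barcodes (28.8 to 49.7) and 33.7% of fibre-high ASC barcodes (30.6 to 37.0). Unthinned, these shares were 48.1% and 56.6%, so the order between the libraries turned with depth and was not distinguishable at equal depth. Of the macrophage/monocyte-like ASC barcodes, 83 had at least 1200 UMIs (median 6490 UMIs before thinning). Trim63 was detected in 3.61% of them (0.752 to 10.2), next to 2.72% (1.36 to 4.81) of fibre-low muscle ASC barcodes. The part of free RNA in these shares was not tested.

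Rrad was detected at equal depth in 2 of 90 fibre-high QSC barcodes (2.22%, 0.270 to 7.80) and in 28.7% of fibre-high ASC barcodes (25.7 to 31.9). Its shares in fibre-low muscle and macrophage/monocyte-like ASC barcodes were 6.67% (4.44 to 9.55) and 7.23% (2.70 to 15.1). Gabarapl2 was detected in 13.3% (7.08 to 22.1) and 45.1% (41.7 to 48.5) of fibre-high QSC and ASC barcodes, and in 21.0% and 15.1% of fibre-low muscle barcodes. Both genes were thus found in a larger part of the fibre-high barcodes after injury, beyond the counting intervals, and unthinned shares of 2.88% and 42.8% for Rrad and 21.2% and 68.2% for Gabarapl2 kept this order.

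Foxo1 was detected at equal depth in 13.9% of fibre-low muscle QSC barcodes (10.6 to 17.9) and 3.95% of fibre-low muscle ASC barcodes (2.27 to 6.34), the latter beside 4.82% (1.33 to 11.9) in macrophage/monocyte-like ASC barcodes. Foxo3 was detected in 11.2% (8.16 to 14.9) and 0.494% (0.0599 to 1.77). This random draw was low for Foxo3 in the ASC library, and the average over all draws was 9.89% and 1.61%. For Foxo1 the draw was high in macrophage/monocyte-like ASC barcodes, which held 6 Foxo1 UMIs. Its average over all draws was 1.76% there and 4.06% in fibre-low muscle ASC barcodes. Unthinned, Foxo1 was in 24.4% and 22.2% of the fibre-low muscle QSC and ASC barcodes, whose median depths were 2222 and 8483 UMIs, while its CPM differed by 5.99-fold. Sqstm1 was in 34.4% (29.6 to 39.5) and 14.6% (11.3 to 18.4) of fibre-low muscle QSC and ASC barcodes, the latter beside 15.7% in macrophage/monocyte-like ASC barcodes, and Map1lc3b in 36.1% (31.1 to 41.2) and 25.4% (21.3 to 30.0), beside 20.5%. This last draw was low for Map1lc3b. Averaged over all draws, its share was 31.0% in macrophage/monocyte-like and 24.8% in fibre-low muscle ASC barcodes, the opposite order. For autophagy genes that macrophages also express, those barcodes are no measure of free RNA.

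**Figure D3:**
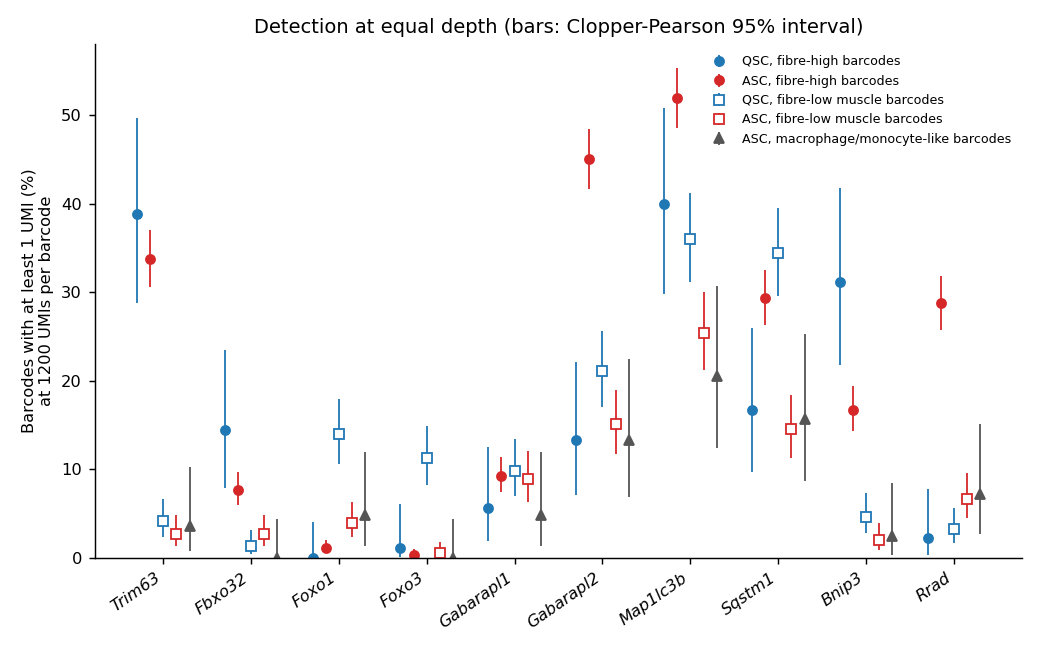
Share of barcodes with at least 1 UMI of each member (vertical axis, percent) after thinning to 1200 UMIs, for fibre-high and fibre-low muscle barcodes of both libraries and for macrophage/monocyte-like ASC barcodes (grey triangles), with Clopper-Pearson 95% intervals. Rrad is highest among fibre-high ASC barcodes, at 28.7%, and Foxo1 and Foxo3 among fibre-low QSC barcodes, at 13.9% and 11.2%.

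Within the 950 fibre-high ASC barcodes the members were unevenly spread. Rrad was in 407 of them, reached 37 UMIs in a barcode, and the 95 barcodes with the most Rrad UMIs held 64.7% of them. Trim63 was in 538 barcodes and reached 24 UMIs, with 45.5% in its leading 95 barcodes. Gabarapl2 was in 648 barcodes, with 37.9%. The plot of UMIs per barcode shows this tail for Rrad: 45 of 950 barcodes (4.74%) had 10 or more UMIs and 543 (57.2%) had 0.

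**Figure D4:**
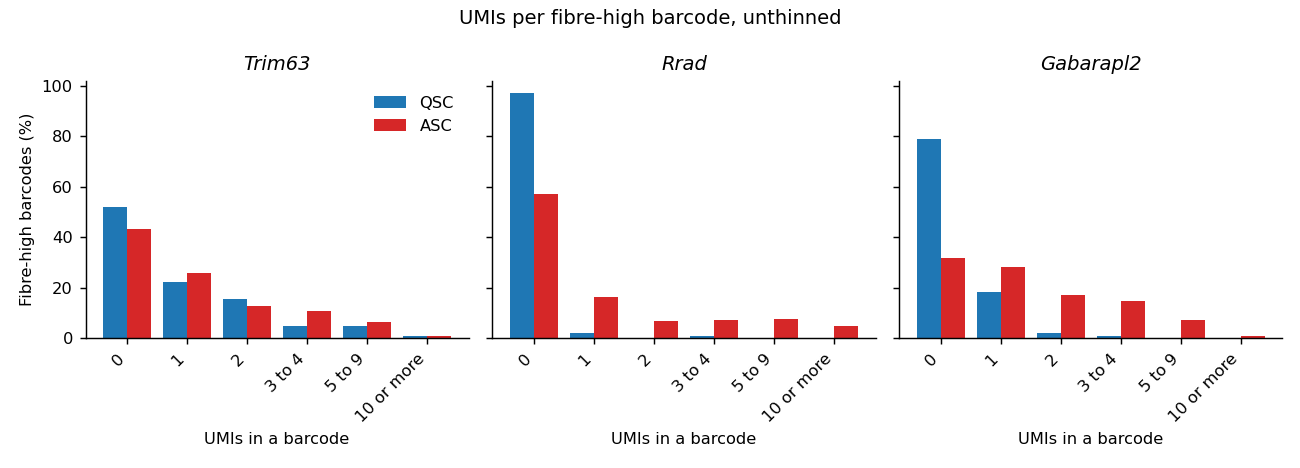
Share of fibre-high barcodes (vertical axis, percent) by their number of Trim63, Rrad and Gabarapl2 UMIs (horizontal axis), without thinning, in the QSC (blue, 104 barcodes) and ASC (red, 950 barcodes) libraries. For Rrad, 97.1% of the QSC and 57.2% of the ASC barcodes had 0 UMIs, and the ASC barcodes alone extended to 10 or more.

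Some members were detected together. At 1200 UMIs, 58.5% of the 248 fibre-high ASC barcodes with Rrad also had Gabarapl2 (52.1 to 64.7), against 39.7% of the 615 without Rrad (35.8 to 43.7). Trim63 was in 45.6% (39.3 to 52.0) and 28.9% (25.4 to 32.7) of the same barcodes. Those with Trim63 had Fbxo32 more often than those without, in 11.7% (8.23 to 15.9) against 5.59% (3.86 to 7.81), and Sqstm1 likewise, in 37.5% (31.9 to 43.3) against 25.2% (21.7 to 28.9). Bnip3 was in 16.8% of those with Trim63 (12.7 to 21.6) and 16.6% of those without (13.7 to 19.9), with overlapping intervals. The barcodes are of 1 library and are not replicates, so these shares describe that library.

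Clusters of the merged libraries, built without the members among the variable genes, place these barcodes more finely. Names follow marker lists, and a cluster without enough markers is given by its leading genes. The fibre clusters of the ASC library with most barcodes were cluster 3 (led by Hbb-bs and Mt3, 240 ASC barcodes), cluster 5 (led by Ankrd1, Csrp3 and Mybph, 188) and the myofibre-like cluster 0 (led by Ampd1 and Myh4, 369). Rrad, Trim63 and Gabarapl2 were themselves among the 10 leading genes of cluster 3, so their levels there are a description. Rrad stood at 1210 CPM in cluster 5 (1126 to 1299) and 945 CPM in cluster 3 (875 to 1019), but at 166 CPM in cluster 0 (145 to 189) and 134 CPM in the slow fibre-like cluster 6 (96.4 to 181). Gabarapl2 was likewise higher in clusters 5 and 3, at 666 and 720 CPM, than in clusters 0 and 6, at 374 and 328 CPM. The highest Trim63 values were 557 CPM in cluster 3 (504 to 615), 538 CPM in cluster 8 of the QSC library (led by Pdk4, Neb and Trdn, 94 barcodes, 441 to 651) and 476 CPM in cluster 5 (424 to 532), whose intervals overlap. Cluster 0 followed at 392 CPM (359 to 427) and cluster 6 at 146 CPM (107 to 195).

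Fbxo32 and Bnip3 were highest in QSC cluster 8. Fbxo32 stood there at 168 CPM (115 to 235), against 93.4 CPM in cluster 3 (72.2 to 119), 76.5 in cluster 0, 44.0 in cluster 5 and 15.9 in cluster 6 (5.17 to 37.1). Bnip3 stood at 305 CPM in cluster 8 (233 to 392), then at 197 CPM in cluster 6 (151 to 253) and 177 in cluster 0 (156 to 201), which overlap, and at 129 in cluster 5 and 90.5 in cluster 3 (69.7 to 116). Among the ASC fibre clusters, cluster 3 thus had the highest Trim63, Fbxo32 and Gabarapl2 values and the lowest Bnip3 value. The intervals of Trim63 and Gabarapl2 in clusters 3 and 5 overlap, as do those of Fbxo32 in clusters 3 and 0 and of Bnip3 in clusters 3 and 5.

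The other autophagy genes had their own orders. For Gabarapl1 the highest value was that of ASC cluster 5, 141 CPM (114 to 174), where it exceeded ASC clusters 0, 3 and 6 (60.2, 55.2 and 38.2 CPM). Its interval lies within that of QSC cluster 0, at 118 CPM (56.6 to 217, 10 UMIs). Map1lc3b reached 732 CPM in ASC cluster 0 (687 to 779), its highest value, and was lowest in the cycling-like barcodes of the ASC library, at 189 CPM (173 to 206). Sqstm1 was highest outside muscle, at 891 CPM (640 to 1210, 41 UMIs) in the 24 neutrophil-like ASC barcodes. Next came the quiescent satellite cell-like cluster 2 of the QSC library at 392 CPM (342 to 446), and then cluster 5. Foxo1 and Foxo3 stood in cluster 2 at 133 CPM (105 to 167) and 101 CPM (76.4 to 130), and at 142 and 130 CPM in the 39 QSC barcodes of cluster 0, of which 2 were fibre-high. After injury, among clusters not named as non-muscle types, Foxo1 was highest in the unnamed cluster 1 (led by Bgn and C1qtnf3), at 39.9 CPM (31.4 to 50.1). Foxo3 was highest among them in the activated satellite cell-like cluster 9, at 21.4 CPM (11.4 to 36.5). In cycling-like barcodes Foxo1 was at 7.06 CPM (4.25 to 11.0).

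**Figure D5:**
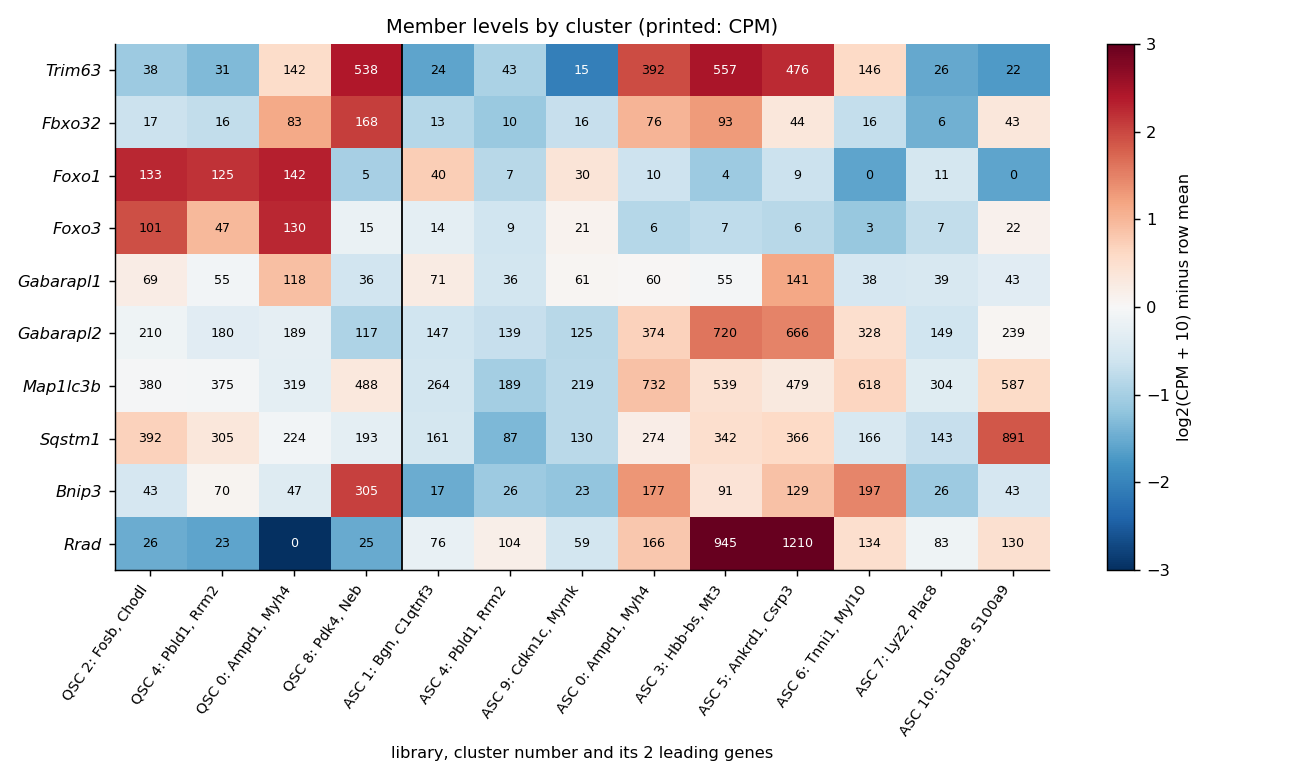
Levels of the members (rows) in clusters of each library with at least 20 barcodes (columns, named by library, cluster number and leading genes); printed numbers are CPM and the colour is log2(CPM + 10) minus the row mean. Rrad and Gabarapl2 are highest in ASC clusters 3 and 5, Trim63 in ASC clusters 3 and 5 and QSC cluster 8, and Foxo1 and Foxo3 in the QSC clusters other than 8.

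Likeness of pattern was measured as Pearson's r of log2(CPM + 10) over these 13 cluster-by-library groups, among 4769 genes with at least 200 UMIs. The groups of a library share its chemistry, depth and free RNA, so r is given as a description. Among the members the closest pairs were Foxo1 and Foxo3 (r = 0.86), Trim63 and Bnip3 (0.83) and Trim63 and Fbxo32 (0.79), and the most opposed pair was Foxo3 and Rrad (-0.74). Outside the members, the gene most like Trim63 was Actn3 (0.951), which encodes the alpha-actinin of fast fibres, with Prorsd1 next. Fbxo32 was most like Cdc37l1 (0.915) and Bnip3 most like Oip5os1 (0.977) and Trdn (0.975), which encodes triadin of the calcium release unit. Foxo1 was most like Adamts1 and Timp3 (both 0.964), and Foxo3 most like Tnrc6b (0.931). Map1lc3b was most like Optn (0.901), which encodes an autophagy receptor, and Gabarapl2 most like Mid1ip1 (0.905). Sqstm1 (Pde4d, 0.821) and Gabarapl1 (Gm13889, 0.725) had no gene as close, and Rrad was most like Stk39 (0.934) and Papola (0.933).

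The genes around the members were read from lists, first for the fibre-low muscle barcodes. Of 25 genes of FoxO signalling and wasting signals with enough UMIs in fibre-low muscle barcodes, 17 were at least 2-fold lower in the ASC library and 2 higher, with a median log2 ratio of -1.34. The lowest were Klf15, a target of the glucocorticoid receptor, from 52.0 to 3.43 CPM (-3.92), Cebpb, from 3055 to 274 CPM (-3.48), and the PI3K subunit gene Pik3r1 (-3.04). The higher ones were Eif4ebp1, which encodes a repressor of cap-dependent translation and went from 98.1 to 311 CPM (1.66, 1.35 to 2.00), and the kinase gene Akt1 (1.51, 0.95 to 2.12). Foxo1 and Foxo3 were therefore not alone in this direction among genes of their pathway.

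Autophagy genes outside the members were also more often lower than higher there. Of 28 genes of autophagosome formation, 12 were lower and none of them higher, with a median of -0.83, the lowest being Rb1cc1 of the ULK complex and Atg2a (both -2.08). Of 11 receptors and mitophagy genes, 6 were lower, such as Pink1 (-1.89, -2.17 to -1.60), and Phb2, a mitochondrial prohibitin, was higher (1.97, 1.67 to 2.28). Of 13 lysosome genes, 2 were lower, among them Lamp2 (-2.10, -2.34 to -1.86). Of 22 ubiquitin genes, 7 were lower and none higher, with a median of -0.73, including the ligase gene Ubr2 (-1.68). These counts stand beside the 22.5% of all genes called lower, and the share of a list was below it for the lysosome genes. Gem, another RGK gene, was lower, from 462 to 90.7 CPM (-2.35, -2.55 to -2.15), and Rem1 was at a log2 ratio near 0 (-0.05, -0.71 to 0.67).

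In fibre-high barcodes, where 18.8% of all genes were called higher and 10.4% lower, the same lists had other counts. Among 20 genes of autophagosome formation none was at least 2-fold lower in the ASC library and 1 was higher, Atg4b, with 0 QSC and 89 ASC UMIs. Against the 3 counts that 0 UMIs allow, its log2 ratio was at least 1.06. The median of -0.15 lay under that of all genes, 0.10, so the higher Gabarapl2 was not shared by the list. Of 17 ubiquitin genes, 4 were lower and none higher, with a median of -0.37, and Trim54, a relative of Trim63, stood at 266 and 472 CPM (0.83, 0.45 to 1.24). Of 11 lysosome genes, 3 were higher, led by the protease gene Ctsd, from 60.6 to 257 CPM (2.09), and 2 lower, both within about 1 gene of the all-gene shares. Of 11 receptors and mitophagy genes, 1 was higher and 1 lower, and Pink1 stood at 583 and 320 CPM (-0.86, -1.13 to -0.58).

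Of 23 genes of the FoxO and wasting list in fibre-high barcodes, 5 were higher (21.7%) and 5 lower (21.7%), beside 18.8% and 10.4% of all genes, with a median of -0.34. The higher share was thus near that of all genes. Lower were Ddit4, an mTORC1 inhibitor, from 103 to 4.25 CPM (-4.59, -5.70 to -3.54), Klf15, from 107 to 13.1 CPM (-3.04, -3.81 to -2.23), and Cebpd (-1.27, -1.73 to -0.80). Higher were Tnfrsf12a, which encodes the TWEAK receptor Fn14, from 42.0 to 332 CPM (2.98, 2.05 to 4.12), the metallothionein gene Mt2, from 634 to 3557 CPM (2.49, 2.24 to 2.74), and Cdkn1a (1.68, 0.83 to 2.69). Fbxo32 thus had the direction of Klf15 and Ddit4, and Gabarapl2 and Rrad that of Tnfrsf12a and Mt2, while Trim63 lay between. The named genes are the ends of a list that held both directions, so a shared direction does not group a member with them.

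Between the classes of the ASC library, 15.8% of all genes were at least 2-fold higher in fibre-high barcodes and 44.3% lower. Of 21 ubiquitin genes, 7 were higher (33.3%) and 6 lower (28.6%). The highest were Fbxo40 (4.05, 3.44 to 4.72), Asb2 (3.54, 3.28 to 3.80) and Trim54 (3.44, 3.24 to 3.65), genes of muscle-enriched ligases. Among 28 genes of autophagosome formation 7 were higher (25.0%) and 5 lower (17.9%), the highest being Wipi1 (1.81, 1.53 to 2.11) and Map1lc3a (1.78, 1.68 to 1.88), and among receptors Optn (3.38) and Pink1 (2.61) were higher. Gem and Rem1 were lower, at -4.12 (-4.93 to -3.40) and -4.68 (-6.98 to -3.10), where Rrad was higher at 2.83.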

How the data were processed

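Single-cell 3′ libraries (10x Genomics) of 1 QSC and 1 ASC sample were analysed. The authors deposited whole-number UMI counts per gene and barcode, made with Cell Ranger 6.0.2 per the file headers, whereas the submitters' processing notes name Cell Ranger 7.1.0, Seurat 4.1.0, R 4.1.2 and the build mm10. Handling of strand is not given in the sources used here. Of 32285 features, 32235 had identifiers in GENCODE M21 (GRCm38), the source of the coordinates. The 10 members and all lists were chosen with earlier results of these data known. Named genes are the members, up to 3 highest and 3 lowest of each list, and the 2 genes most like each member. Clusters came from Seurat 5.3.0 (R 4.3.3, 1081 variable genes without 3 members, 10 principal components, resolution 0.6). Doublets were not removed, and their part was not tested. UMIs were summed per library and class, as CPM, and ratios carry exact conditional binomial 95% intervals. With 1 library per group no test was made. The summing and interval code was tested on simulated data. Alternatives changed scaling (TMM, edgeR 4.0.16; the median gene), barcode filters, class limits, thinning and cluster resolution.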

Additional observations from a re-analysis of the deposited data

Results flagged for a closer look

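The ratio of the ASC over the QSC library pointed in opposite directions in the classes of barcodes for 4 members, each higher in the ASC library among fibre-high barcodes and lower in it among fibre-low muscle barcodes. The log2 ratio in fibre-high minus that in fibre-low muscle barcodes was 1.55 for Gabarapl1, 2.73 for Gabarapl2, 1.37 for Map1lc3b and 2.46 for Sqstm1. With 1 library per group the difference was not tested. Beside it stand the unequal depths of the classes, with medians of 1635 and 2666.5 UMIs in fibre-high and 2222 and 8483 UMIs in fibre-low muscle barcodes of the QSC and ASC libraries, whose part in the result was not tested. For Sqstm1 the fibre-high ratio was -0.23 with a fibre-high limit of 2%, and then both directions were alike. For Gabarapl1 the fibre-high ratio rests on 8 QSC UMIs.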

How the results depend on the processing

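Of 550 log2 ratios of members under alternatives, 446 moved within the counting interval, 102 moved further and 2 reversed a 2-fold call. Both reversals were Foxo1 under a limit of 1% mitochondrial UMIs: 0.35 for ASC over QSC over all barcodes (24 and 1 UMIs) and 1.72 for fibre-high over fibre-low muscle ASC barcodes (20 and 1 UMIs). This limit, which the methods of the study name, left 1 fibre-low muscle barcode in the QSC library. A change of sign in a ratio short of 2-fold was not counted as a reversal. Over all barcodes such ratios crossed 0 for Trim63 (-0.60 to 1.36), Fbxo32 (-1.58 to 0.08) and Gabarapl1 (-0.43 to 0.87). They also did for Map1lc3b (-0.17 to 0.38), Sqstm1 (-0.89 to 0.54) and Bnip3 (-1.17 to 0.44). The number of members past 2-fold over all barcodes went from 3 to 5 with barcodes weighted alike (3 higher, 2 lower), and in fibre-high barcodes from 5 to 3 with the 1% limit. For fibre-high over fibre-low muscle QSC barcodes it went from 5 to 9 relative to the median gene (3 higher, 6 lower) and to 3 with a fibre-high limit of 2%. That median gene lay at 1.07, among 1118 genes with at least 20 UMIs in each class, against -0.89 over all genes called on. Beyond this shift, the cause of these changes was not tested. The highest ASC cluster value of Rrad was 1210, 1184 and 1527 CPM at resolutions 0.6, 0.3 and 1.0, that of Trim63 557, 462 and 578 CPM, and that of Gabarapl2 720, 658 and 718 CPM. Chosen after seeing the data were the resolutions for the fibre-low muscle comparisons, which left each count of members past 2-fold as it was, and the average over all thinnings. Not run, for fewer than 20 barcodes in a class, were the 1000-gene minimum in fibre-high barcodes and the QSC classes, and the 1% limit in fibre-low muscle barcodes and the QSC classes. No paired analysis was possible because there was 1 library per group and the labels carry no replicate numbers. Depth limits Foxo1, Foxo3, Gabarapl1 and Rrad in fibre-high QSC barcodes, with at most 8 UMIs each. The 5 Rrad UMIs there came from 3 barcodes, 3 of them from 1 barcode.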
